A study of Mus musculus with 8 samples.

Results

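Hemoglobin RNA was followed across the cell classes of the mouse long-bone periosteum, as the molecules (UMIs) of Hba-a1 and Hba-a2, which encode the adult alpha chain, and of Hbb-bs and Hbb-bt, which encode the adult beta chain. These 4 genes, of 32285 in the count matrices, were taken by symbol, and they were chosen by their UMI totals in the kept cells of these same libraries, so that every level below is a description and not a test. Periosteal cells had been released by enzyme digestion from left femurs and tibias of 16-week-old male C57BL/6J mice kept on a normal diet (ND) or a high-fat diet (HFD). The labels name no engineered allele. The labels list 4 mice per diet, but their cells were deposited as 1 pooled library per diet with no map from cell to mouse. No comparison between diets therefore has a replicate, no p-value is given, and each interval given is an exact 95% interval of the counting error alone.

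The ND library held 6314 barcodes and 48558889 UMIs, and the HFD library 6636 barcodes and 49940976 UMIs. A barcode was kept if its number of detected genes lay above 500 and below 8000 and its mitochondrial share of UMIs below 20%. This passed 6029 barcodes in ND (median depth 4610 UMIs) and 6224 in HFD (4823.5). The libraries shared 15 barcode sequences, 1 of them with 20 or more hemoglobin UMIs. Clustering without the Hba, Hbb and Hbq globin genes gave 27 clusters. Of these, 26 were named after marker genes, as X-like, into 13 classes.

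Hemoglobin is built from alpha and beta chains that each hold a heme group, and red cells carry oxygen with it. Its genes lie in separate alpha and beta clusters on different chromosomes, are switched on in erythroblasts under factors such as Gata1 and Klf1, and give messages so stable that they outlast the nucleus in reticulocytes. In bone, erythroblasts mature in the marrow, and red cells are also present wherever blood vessels run. In droplet sequencing, RNA from broken cells floats in the suspension and gives UMIs in droplets whose cell does not express the gene.

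On the mm10 build (GRCm38), Hba-a1 (ENSMUSG00000069919) lies at chr11:32283511-32284465 and Hba-a2 (ENSMUSG00000069917) at chr11:32296489-32297298, both on the plus strand. Hbb-bs (ENSMUSG00000052305) lies at chr7:103826534-103828096 and Hbb-bt (ENSMUSG00000073940) at chr7:103812524-103813996, both on the minus strand. Each has 3 exons. The transcripts are of similar length, from 554 bases for Hba-a2 to 703 for Hbb-bt, and a UMI counts a molecule once whatever its length. The 2 members of a pair are nearly the same message: the coding sequences of Hba-a1 and Hba-a2 are identical at 425 of 426 bases, and those of Hbb-bs and Hbb-bt at 440 of 441. Their last 100 transcript bases share an unbroken run of 84 bases in the Hba pair but of only 8 in the Hbb pair. The handling of reads that fit both copies is not stated, so the split between Hba-a1 and Hba-a2, and possibly that between Hbb-bs and Hbb-bt, is uncertain. Reads that fit both copies and were not counted would lower the sum of a pair too, so alpha shares carry the same limit.

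The 150 bases before the start of transcription are shown because the members were expressed together in the same cells. They are RefSeq's for GRCm38.p6, written 5′ to 3′ on the strand of the gene, with matches to 4 short motifs in capitals, searched on both strands. The first motif is CCAAT, whose match on the other strand reads ATTGG. The second motif searched was CACCC. The third, the TATA box core, was searched as TATAA. The last was GATA, the core bound by Gata1 and its relatives. The windows are chr11:32296342-32296491 for Hba-a2, chr7:103827929-103828078 for Hbb-bs and chr7:103813924-103814073 for Hbb-bt. The starts used are RefSeq's and differ from the gene positions given above. The Hbb-bs window thus lies within its gene as given there, and the Hba-a2 and Hbb-bt windows overlap theirs. Hba-a1 is not shown, since its window shares an unbroken run of 147 bases with that of Hba-a2.
Hba-a2: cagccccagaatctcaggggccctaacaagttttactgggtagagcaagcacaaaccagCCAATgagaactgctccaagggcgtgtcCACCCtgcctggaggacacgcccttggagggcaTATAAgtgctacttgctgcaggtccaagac
Hbb-bs: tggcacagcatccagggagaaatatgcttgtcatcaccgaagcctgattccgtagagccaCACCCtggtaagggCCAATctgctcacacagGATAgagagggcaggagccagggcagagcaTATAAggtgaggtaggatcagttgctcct
Hbb-bt: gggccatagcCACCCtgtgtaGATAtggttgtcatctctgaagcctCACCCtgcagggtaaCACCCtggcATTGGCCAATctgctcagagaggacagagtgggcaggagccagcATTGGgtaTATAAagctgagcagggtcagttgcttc

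All 4 windows, Hba-a1 included, hold the first 3 of these motifs. Of 32851 mouse promoter windows of the same length, 24.5% hold the CCAAT motif. The CACCC motif is in 37.4% of them. The TATAA motif is in 14.2%, and it begins 27 to 30 bases before the start in the 4 genes. In the Hbb-bt window matches to the first motif on opposite strands lie side by side, and the second motif occurs 3 times. The GATA motif, found in 35.7% of all windows, is present in both Hbb windows and in neither Hba window. These matches describe letters and were not tested for binding.

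The erythroid-like class was the main holder of hemoglobin RNA. It comprised 33 ND cells, 0.547% of kept cells (0.377 to 0.768), and 26 HFD cells, 0.418% (0.273 to 0.611), and every one of them had at least 3 erythroid markers. All 14 measured markers had UMIs in it in both libraries, with 241 ND and 232 HFD UMIs of Alas2, which opens heme synthesis in erythroblasts. These cells held 86.1% of all hemoglobin UMIs of kept ND cells and 81.8% of those of kept HFD cells. A single ND cell carried between 240 and 13021 hemoglobin UMIs, with a median of 2991, and a single HFD cell between 1274 and 13414, with a median of 3065.5. The median cell gave 54.3% of its UMIs to hemoglobin in ND and 53.4% in HFD.

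**Figure D1:**
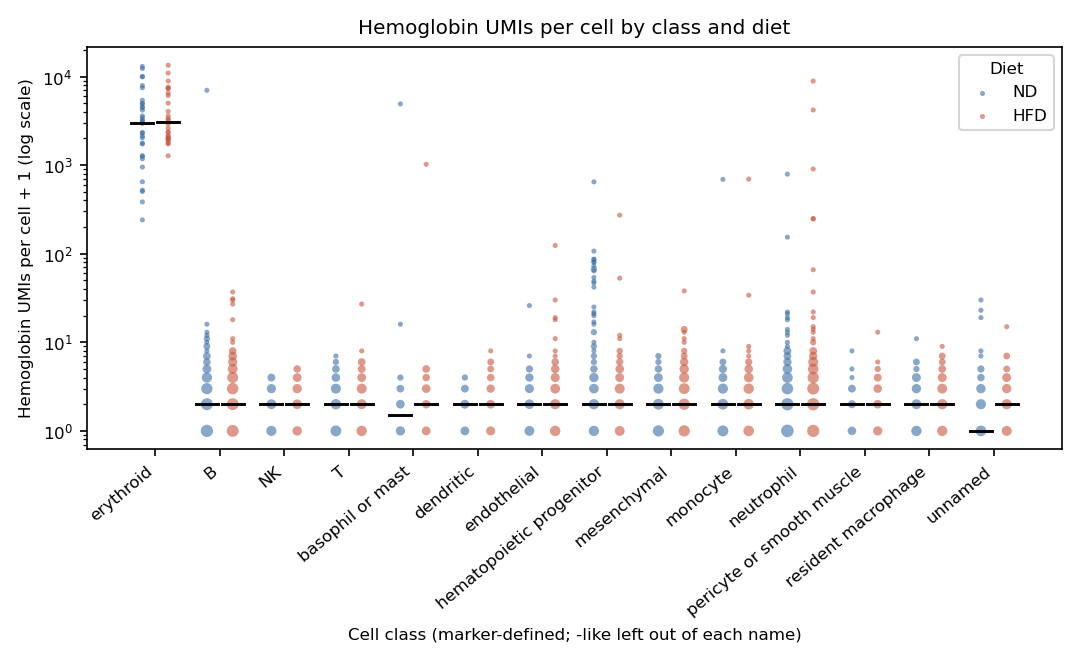
Hemoglobin UMIs per cell (plus 1, log scale) in each marker-defined class, with ND in blue and HFD in red. Each point is a value and its area grows with the number of cells at that value, and bars are medians. The erythroid-like cells lie at 240 to 13414 UMIs, the medians of all other classes at 0 to 1, and 48 cells outside the erythroid-like class reach 20 or more.

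By summed UMIs, Hbb-bs was the most abundant member in erythroid-like cells, followed by Hba-a1, Hba-a2 and Hbb-bt in both libraries. The medians by cell given below put Hbb-bt above Hba-a2 in both. For Hbb-bs a cell held 68 to 6303 UMIs in ND (median 1395) and 378 to 5955 in HFD (median 1222), which sums to levels of 106317 and 107872 UPM (UMIs of the gene per 1000000 UMIs of the class). For Hba-a1 the range was 60 to 3101 in ND (median 856) and 326 to 3905 in HFD (median 814.5), or 56123 and 62476 UPM. The ranges of the 2 libraries overlapped over most of their length for both genes. Hba-a2 had 25 to 2552 UMIs per ND cell (median 366) and 134 to 1783 per HFD cell (median 445.5), or 36364 and 37202 UPM. Hbb-bt had 24 to 1535 per ND cell (median 367) and 96 to 1841 per HFD cell (median 515.5), or 27352 and 31706 UPM. Every erythroid-like cell of both libraries had UMIs of all 4 genes.

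Between diets the pooled hemoglobin level of erythroid-like cells was nearly the same. Summed over the 4 genes it was 226155 UPM in ND and 239256 in HFD, where the log2 ratio (HFD over ND) was 0.08 (0.07 to 0.09). Per cell the ratio was 0.18 on the log2 scale. For single members the log2 ratio was 0.15 (0.13 to 0.18) for Hba-a1, 0.03 for Hba-a2, 0.02 for Hbb-bs and 0.21 (0.18 to 0.25) for Hbb-bt. None of the 4 was past a 2-fold difference in either direction, against 3.34% of the 4076 genes with at least 20 UMIs in these cells that were past it upwards and 4.86% that were past it downwards. The members' median log2 ratio was 0.09, against -0.03 over all 4076 genes. Cells within a library spread over a far wider range than the libraries differed, and leaving out the cell of highest hemoglobin of each library moved the ratio to 0.12. The alpha share of hemoglobin UMIs was 40.9% in ND (40.6 to 41.2) and 41.7% in HFD (41.4 to 41.9).

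The genes that serve hemoglobin production were present with it. The level outside the class was taken here from cells with under 20 hemoglobin UMIs, a limit set after the values were seen. This leaves out 48 outside cells, 34 of them with at least 3 erythroid markers. Of 14 genes of heme synthesis and mitochondrial iron with at least 20 UMIs, all 14 stood over 2-fold above that level. They were led by Tmem14c, a mitochondrial protein needed for heme synthesis, at 1679 UPM. All 17 genes of the red cell membrane and skeleton also stood over 2-fold above the outside level, with the anion exchanger Slc4a1 at 897. So did all 17 red cell enzymes and late maturation genes, with the glutathione peroxidase Gpx1 at 4313, the carbonic anhydrase Car2 at 4253 and the peroxiredoxin Prdx2 at 3598. Of 13 erythroid transcription factors 8 did so, among them Lmo2 at 341, Klf1 at 279 and Gata1 at 115 UPM, as did all 12 cell cycle genes. Of 7 genes of iron uptake and storage 4 did so, with the transferrin receptor Tfrc at 475 UPM, whereas the ferritin chain Fth1 stood at 7182 inside and 7534 outside the class. Over all 4076 genes the share was 28.0%. Erythroid markers named this class, so these values describe it and do not test it. Between diets none of these list genes was past 2-fold, and the median log2 ratio of HFD over ND lay at 0.21 for heme synthesis, -0.0045 for membrane genes, 0.13 for enzymes and 0.32 for the factors. None of the 7 iron genes, 4 genes of erythropoietin response and 5 of heme and hemoglobin clearance was past 2-fold either. The globin chaperone Ahsp was not analysed here.

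The makeup of hemoglobin differed with its share of the cell. The 59 erythroid-like cells were ordered by the share of their UMIs that was hemoglobin. They were split into low-share (20 cells, median 5.25%), middle (20 cells, 54.4%) and high-share cells (19 cells, 79.8%). These groups held 13, 11 and 9 cells of ND and 7, 9 and 10 of HFD. The pooled levels compared between diets above thus mix them in unlike parts. Hbb-bs made up 64.2% of beta UMIs in low-share cells (63.5 to 64.8), 79.9% in middle cells and 81.7% in high-share cells (81.5 to 82.0). By cell, its share ran from 33.0% to 81.4% (median 67.2%) in low-share cells, from 61.4% to 87.2% (median 82.2%) in middle cells and from 74.8% to 88.4% (median 81.2%) in high-share cells, so the groups overlapped at their edges. The difference was in the same direction in both libraries, from 68.3% in low-share to 81.2% in high-share cells in ND and from 58.9% to 82.4% in HFD, while middle cells were at 82.6% in ND and 77.2% in HFD. The 15 cells under 10% hemoglobin had a median Hbb-bs share of 56.9% (33.0 to 77.9), and the 44 others one of 81.2% (61.4 to 88.4). Hbb-bt is the rest of beta, and its share of beta was thus larger where hemoglobin was a small share of the cell. Hemoglobin was not scarce in low-share cells, which held a median of 2027.5 hemoglobin UMIs, against 2471.5 in middle and 6512 in high-share cells.

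The alpha pair moved within itself but not against beta. Hba-a1 took 73.2% of alpha UMIs in low-share cells, 65.4% in middle cells and 55.9% in high-share cells, with medians by cell of 73.4% (54.1 to 90.8), 63.5% (56.5 to 71.1) and 56.9% (52.1 to 63.0). This split is the one that shared 3′ sequence makes uncertain. Alpha as a whole made up 41.1%, 41.1% and 41.4% of hemoglobin UMIs in the 3 groups. Among single low-share cells the alpha share ranged from 26.6% to 57.9%, and among high-share cells from 36.0% to 47.9%. The low-share cells had a median of 39937.5 UMIs and 4792 genes, the high-share cells 7874 UMIs and 587 genes, so that depth and complexity differed together with hemoglobin share, and their part in the makeup was not tested.

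**Figure D2:**
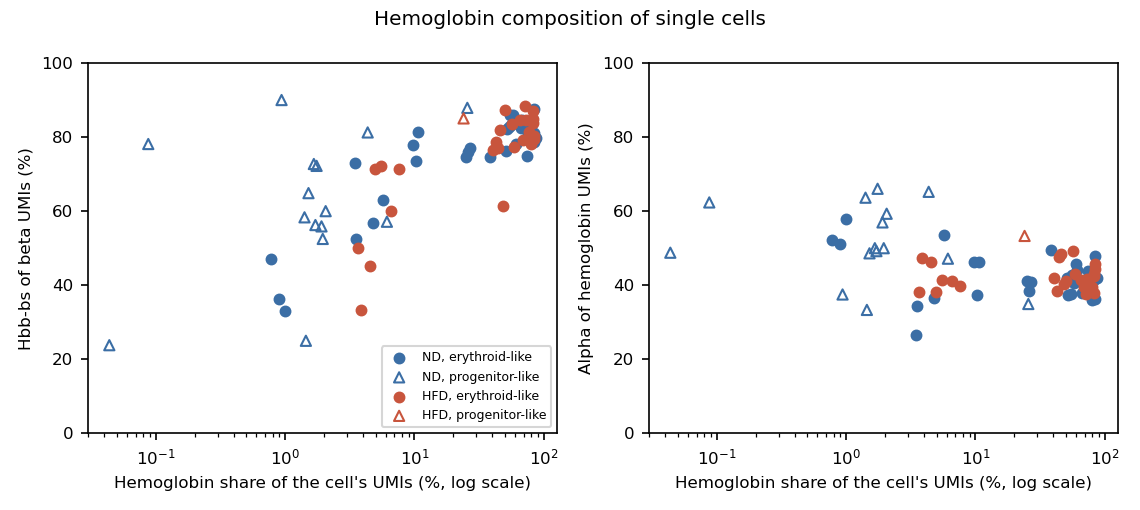
Each point is a cell. The left plot gives the share of beta UMIs that was Hbb-bs and the right plot the share of hemoglobin UMIs that was alpha, both in percent, against the hemoglobin share of the cell's UMIs (log scale). Filled circles are erythroid-like cells and open triangles are progenitor-like cells with 3 or more erythroid markers and at least 10 beta UMIs. The limit on beta UMIs leaves out progenitor-like cells of high alpha share. On the left, cells of 10% hemoglobin or more lie between 61.4% and 88.4% and erythroid-like cells under 10% between 33.0% and 77.9%.

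Other genes ordered the same cells. With levels taken for each 1000000 UMIs without hemoglobin, high-share cells stood over 2-fold above low-share cells in 17 of 17 membrane and skeleton genes, 15 of 17 enzymes and late maturation genes and 10 of 14 heme synthesis genes, against 18.0% of the 3781 genes with at least 20 UMIs in both groups together. Alas2 was at 118 on this scale in low-share and at 6945 in high-share cells, the mitochondrial iron carrier Slc25a37 at 246 and 5782, and Slc4a1 at 448 and 7510. The heme synthesis gene Tmem14c went the other way, at 2202 in low-share and 332 in high-share cells (1528 and 10 UMIs). The list medians were 2.65, 3.90 and 2.01 on the log2 scale, and 2.61, 3.90 and 2.09 when counts under 3 were set to 3, the limit that a count of 0 allows. With counts so set, the counts of the 3 lists were the same but 43.5% of all genes were over 2-fold higher, and the median of all genes was 0.79 instead of -1.11. Among genes with at least 200 UMIs, the largest ratios included those of Tmcc2 (28 UMIs in low-share and 280 in high-share cells), of Bpgm, which makes the red cell metabolite that lowers oxygen affinity (21 and 201), of the interferon-induced Rsad2 (27 and 149) and of Prxl2a (51 and 142).

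Some genes had many UMIs in low-share cells and almost none in high-share cells, with middle cells left out of the comparison. They were led by the ribosomal protein gene Rps18 (3098 UMIs in low-share and 1 in high-share cells), the nucleolar protein gene Npm1 (927 and 0), the dUTPase gene Dut (681 and 0), the carbonic anhydrase gene Car1 (1955 and 1) and the mitochondrial chaperonin gene Hspe1 (496 and 0). High-share cells had only 30092 UMIs outside hemoglobin, where 3 counts amount to 99.7 on this scale, while low-share cells had 693920. Over all genes, 54.0% were over 2-fold lower in high-share cells with 0.5 added to each count, and 13.7% with counts under 3 set to 3. The DNA replication genes Pcna (376 and 0 UMIs), Mcm5 (144 and 0) and Mcm3 (183 and 0) were lower under both, whereas Mki67 was at 868 and 1097 and Ube2c at 453 and 1595 on this scale. Summed, the cell cycle genes were highest in middle cells, at 10606 (821 UMIs). They were at 4643 in low-share cells (3222 UMIs) and 4187 in high-share cells (126 UMIs). Of the 13 factors, 6 were lower and 4 higher in the first way, and 1 lower and 5 higher in the second. Among those higher were Nfe2 (17 and 23 UMIs) and Lmo2 (246 and 38). Gata1 had 100 and 3 UMIs and Klf1 221 and 13, or 318 and 432 on this scale.

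The filter on detected genes removed more hemoglobin than it kept. Of 342213 hemoglobin UMIs in all ND barcodes 43.4% lay in kept cells, and of 330625 in HFD 42.3%. The removed barcodes included 37 in ND and 36 in HFD with 1000 or more hemoglobin UMIs, and all of them had 500 or fewer genes. Their median hemoglobin share was 82.1% in ND and 82.9% in HFD, with a highest value of 96.4% and 96.3%. Their makeup was near that of the high-share cells: alpha was 41.2% of hemoglobin in ND and 42.8% in HFD, and over both Hba-a1 was 55.5% of alpha and Hbb-bs 83.0% of beta. Of barcodes just inside the limit, with at most 600 genes, 10 of 103 in ND and 8 of 104 in HFD had 1000 or more hemoglobin UMIs. Of those within the same distance below it, 19 of 112 and 21 of 175 did. With a minimum of 200 genes the erythroid-like class grew from 59 to 274 cells, 58 of them shared, the share of kept cells from 0.547% to 2.35% in ND and from 0.418% to 1.93% in HFD, and the log2 ratio of the level turned from 0.08 to -0.04.

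Hematopoietic progenitor-like cells are described next because most of their hemoglobin lay in cells with erythroid markers, although neutrophil-like, B-like and basophil or mast-like cells held more in total in both libraries. Of 234 such cells in ND and 196 in HFD, 42 and 15 had at least 3 erythroid markers, and these held 1734 and 360 hemoglobin UMIs. A cell of this kind had 0 to 647 hemoglobin UMIs in ND (median 12) and 0 to 272 in HFD (median 2), against at most 8 in ND and 11 in HFD in progenitor-like cells with fewer markers. They had more Car1 per UMI outside hemoglobin than erythroid-like cells (4149 against 2522 for each 1000000 such UMIs) and more of the stem and progenitor receptor Kit (83.8 against 4.99), but less Alas2 (5.01 against 590) and Slc4a1 (13.6 against 1168). Gata1 stood at 93.1 and 150, and Klf1 at 180 and 363. These levels are pooled, so deep cells weigh most. Cells of 97306, 93934 and 86686 UMIs held 433, 651 and 548 of the 5795 Car1 UMIs, with 85, 41 and 52 hemoglobin UMIs. A shallower ND cell of 4181 UMIs had 86 hemoglobin UMIs and 5 of Car1. Car1, Alas2, Slc4a1, Gata1 and Klf1 are also among the erythroid markers by which these cells were taken, so their levels describe that choice in part. Kit is among the markers that named the progenitor-like class, so its level describes that naming in part. The higher hemoglobin of ND rested on few cells: 17 ND cells had 20 or more UMIs, and 2 HFD cells.

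In these progenitor-like cells alpha made up 49.0% of hemoglobin UMIs (46.9 to 51.2), above the 41.3% of erythroid-like cells (41.1 to 41.5). The share was 47.4% (45.0 to 49.8) in ND and 56.9% (51.7 to 62.1) in HFD. The 16 cells with at least 10 beta UMIs had alpha shares of 33.3% to 66.0% with a median of 50%, and Hbb-bs shares of 23.8% to 90.0% with a median of 62.4%. The limit on beta UMIs itself removes cells of high alpha share, so these ranges are not those of the whole group. An HFD cell left out had 52 hemoglobin UMIs that were 94.2% alpha. An ND cell left out had 20 that were 80% alpha, with Hbb-bs at 0% of beta. Hbb-bs was 71.1% of beta in ND and 82.6% in HFD. UMIs of 1 cell are not independent samples of the class: 647 of the 1734 ND UMIs and 272 of the 360 HFD UMIs came from 1 cell each. The median depth of these cells was 4829 UMIs in ND and 30648 in HFD, and its part in the difference between diets was not tested.

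**Figure D3:**
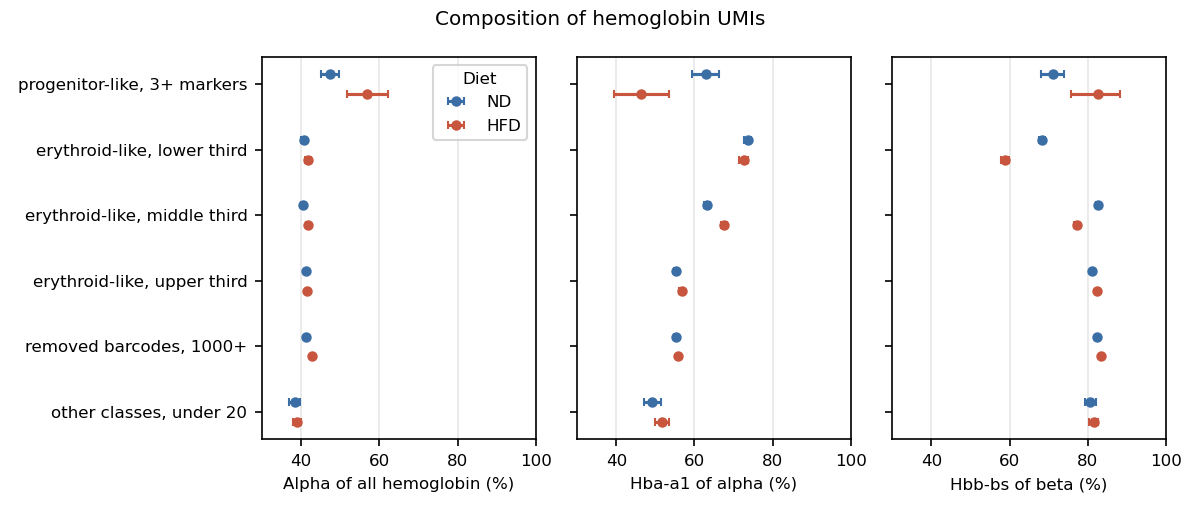
Alpha as a share of hemoglobin UMIs, Hba-a1 as a share of alpha and Hbb-bs as a share of beta, in percent (horizontal axes from 30 to 100), for groups of cells in ND (blue) and HFD (red). Points are pooled UMIs and bars exact 95% intervals (counting error alone). The lower, middle and upper groups are low-share, middle and high-share cells. Alpha stays between 38.3% and 42.8% except in progenitor-like cells, while Hba-a1 falls from low-share to high-share cells. Pooled Hbb-bs is lowest in low-share erythroid-like cells, and in ND it is 82.6% in middle and 81.2% in high-share cells. By cell, the median Hbb-bs share was 67.2% in low-share cells. It was lower, at 62.4%, in the progenitor-like cells with at least 10 beta UMIs.

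Outside these cells, hemoglobin was found at about 1 UMI per cell in every class. Of all kept cells 53.8% in ND and 69.2% in HFD had a hemoglobin UMI, and among cells outside the erythroid-like class with under 20 hemoglobin UMIs the mean was 0.907 UMIs per cell in ND (0.883 to 0.931) and 1.36 in HFD (1.34 to 1.39). The limit of 20 was chosen after the distribution had been seen. In ND the means by class were 1.68 in progenitor-like, 1.16 in pericyte or smooth muscle-like, 1.09 in endothelial-like, 1.08 in resident macrophage-like, 1.00 in basophil or mast-like and 0.972 in monocyte-like cells. They were 0.908 in T-like, 0.881 in dendritic-like, 0.860 in neutrophil-like, 0.854 in B-like, 0.831 in mesenchymal-like and 0.828 in NK-like cells. Neighbours in this order had overlapping intervals in ND and in HFD, where the means ran from 1.69 in progenitor-like to 1.28 in B-like cells. Some classes further apart did differ beyond their intervals. In ND the interval was 1.51 to 1.86 in progenitor-like and 0.823 to 0.897 in neutrophil-like cells. In HFD it was 1.51 to 1.88 in progenitor-like and 1.23 to 1.34 in B-like cells. Progenitor-like cells with under 3 erythroid markers had 1.22 in ND and 1.61 in HFD.

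These means rose far less than the depth of the cells. The median depth of the 12 classes ranged from 3914 UMIs in B-like to 31214 in progenitor-like cells in ND, a 7.97-fold range, while hemoglobin UMIs per cell spanned 2.03-fold. The deepest class, progenitor-like, also had the highest mean in both libraries. The level on the UPM scale was nevertheless lowest there, from 54.0 in progenitor-like to 220 in endothelial-like cells in ND and from 65.7 to 299 in HFD, and no order of expression can be read from it. Within classes, when the cells of a class and library were split into 4 groups by depth, the depth of the highest group was 2.31 to 5.64 times that of the lowest over 13 such splits, and hemoglobin per cell 0.76 to 1.95 times. Hemoglobin per cell was higher in the deepest than in the shallowest group in 12 of the 13, all but ND progenitor-like cells. In neutrophil-like cells it was 0.738 (0.671 to 0.810) and 1.03 (0.946 to 1.11) in ND, and 1.25 (1.17 to 1.35) and 1.65 (1.55 to 1.75) in HFD. With every cell thinned to 1000 UMIs the share of cells outside the erythroid-like class with a hemoglobin UMI was 16.6% in ND and 22.8% in HFD, against 53.5% and 69.1% unthinned, where 55 ND and 51 HFD shallower cells were left out. T-like and B-like cells had a UMI in 52.5% and 51.9% of ND cells, at median depths of 6568 and 3914 UMIs. Mesenchymal-like cells had one in 52.1%, at a median depth of 10640. Whether such shares come from free RNA or from the cells themselves was not tested.

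**Figure D4:**
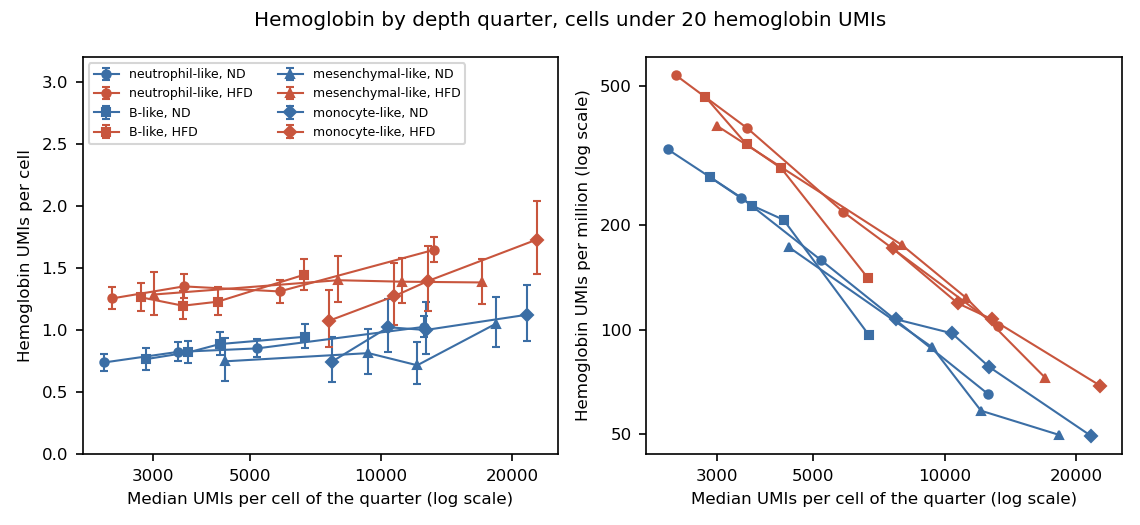
Hemoglobin UMIs per cell (left) and UPM (right, log scale) against the median UMIs of 4 depth groups (log scale) of neutrophil-like, B-like, mesenchymal-like and monocyte-like cells with under 20 hemoglobin UMIs, ND in blue and HFD in red. Bars on the left are exact 95% intervals for counting error. All left lines end higher than they start, as from 0.738 to 1.03 in ND neutrophil-like cells, the right lines fall, and the HFD points lie above the ND points of the same class and depth group.

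The makeup of hemoglobin in cells with under 20 hemoglobin UMIs was set beside that of the cells above. Outside the erythroid-like and progenitor-like classes, 13150 hemoglobin UMIs in cells with under 20 were 38.7% alpha (37.9 to 39.6), Hba-a1 was 50.7% of alpha and Hbb-bs 81.2% of beta (80.3 to 82.0). Hbb-bs thus stood near the 79.9% of middle cells, the 81.7% of high-share cells and the 83.0% of removed barcodes. It was far from the 64.2% of low-share cells, whereas alpha and Hba-a1 were below their values in all of these groups. Over 11 named classes the alpha share ranged from 27.7% to 55.6% in ND, and every interval held the pooled 38.3%. In HFD it ranged from 34.2% to 54.2%, and 10 of 11 intervals held the pooled 39.0%. The exception was pericyte or smooth muscle-like cells, where alpha was 55.6% in ND (38.1 to 72.1) and 54.2% in HFD (42.9 to 65.2), or 65 of 119 UMIs over both libraries. For Hbb-bs in ND the interval of B-like cells (75.7%, 72.7 to 78.6) did not hold the pooled 80.7%, and for Hba-a1 in ND that of basophil or mast-like cells (84.6%, 54.6 to 98.1) did not hold the pooled 49.2%. These differences were not tested.

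Over all cells outside the erythroid-like class, hemoglobin stood at 435 UPM in ND and 520 in HFD, a log2 ratio of 0.26 (0.23 to 0.28). This ratio was 0.059 with no limit on mitochondrial UMIs and 0.078 with hemoglobin genes kept in the clustering, and it rests on few cells of high hemoglobin. In cells with under 20 hemoglobin UMIs, a limit set after seeing the data, the level was higher in the HFD library. Per cell it was 1.51-fold that of ND and on the UPM scale the log2 ratio was 0.59 (0.54 to 0.64). It was higher per cell in HFD in 12 of 12 classes, from 1.01-fold in progenitor-like to 1.69-fold in dendritic-like cells, with the interval of the ratio above 0 on the log2 scale in 9. In progenitor-like cells with under 3 erythroid markers it was 1.32-fold. The members' log2 ratios on the UPM scale were 0.65 for Hba-a1, 0.55 for Hba-a2, 0.62 for Hbb-bs and 0.45 for Hbb-bt, and 2 of the 4 were past 1.5-fold, against 11.1% of 15946 genes. Their median was 0.59 and that of all these genes 0.03. All 12 classes share the same 2 suspensions, so they are not separate observations of a diet effect, and a difference between diets cannot be told apart from one between preparations.

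Other abundant RNAs had ratios on both sides of this one outside the class that held most of each. Per B-like cell, the neutrophil genes S100a8 and S100a9 were at 0.58-fold and 0.60-fold of ND in HFD. Camp and Ngp were at 1.36-fold and 1.12-fold there, whereas per mesenchymal-like cell they were at 0.344-fold and 0.316-fold. Their levels differed widely between these classes. Camp stood at 15.5 (ND) and 5.35 UMIs (HFD) per mesenchymal-like cell, against 0.619 and 0.840 per B-like cell. Ngp stood at 17.5 and 5.54, against 0.854 and 0.953. The collagen gene Col1a1 was at 4.99-fold per B-like (41 and 197 UMIs), 3.16-fold per neutrophil-like and 1.47-fold per T-like cell. The antibody gene Igkc was at 1.19-fold per T-like cell and at 1.52-fold per mesenchymal-like cell. Hemoglobin stood at 0.831 UMIs (ND) and 1.36 (HFD) per mesenchymal-like cell with under 20 hemoglobin UMIs. Over all barcodes, the kept and the removed, hemoglobin UMIs were slightly fewer in HFD (330625) than in ND (342213).

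**Figure D5:**
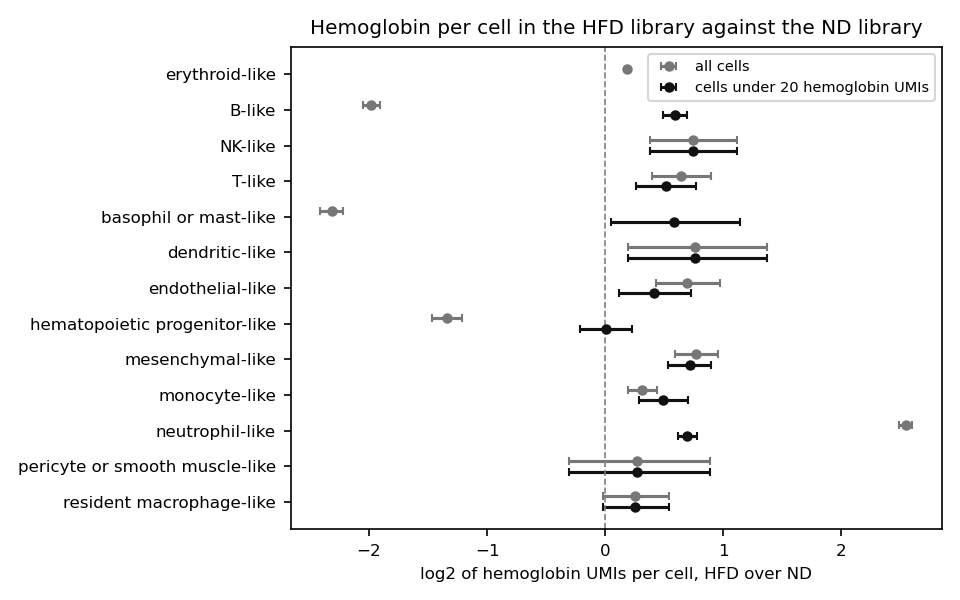
Log2 ratio of hemoglobin UMIs per cell in HFD over ND by class, for all cells (grey) and for cells with under 20 hemoglobin UMIs (black). Bars are exact 95% intervals (counting error alone), and the dashed line marks equal levels. All black points lie at or above 0, whereas the grey points of B-like, basophil or mast-like and progenitor-like cells lie below -1 and that of neutrophil-like cells above 2.

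A few cells outside the erythroid-like class carried most of the remaining hemoglobin. They were 48 of 12194 cells with 20 or more hemoglobin UMIs, 27 in ND and 21 in HFD, and held 70.0% of all hemoglobin UMIs outside the class. At least 3 erythroid markers were present in 34 of them and none in 13, and 2 were called doublets. Among them 19 were progenitor-like, all with at least 3 markers. Of 13 cells of other classes with 100 or more UMIs, 12 had at least 3 markers. The highest were 2 HFD neutrophil-like cells with 8890 and 4196 hemoglobin UMIs, an ND B-like cell with 7001, an ND basophil or mast-like cell with 4916 and an HFD basophil or mast-like cell with 1021. The first of these had 6 UMIs of Slc4a1 and 14 of Alas2, and gave 51.1% of its UMIs to hemoglobin. The 13 cells with no marker had 20 to 37 hemoglobin UMIs.

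The diet ratio of whole classes turned on a few cells of this kind. With all cells, the log2 ratio on the UPM scale of HFD over ND was -1.99 in B-like, -2.16 in basophil or mast-like, -1.13 in progenitor-like and 2.47 in neutrophil-like cells. Without cells of 20 or more UMIs it was 0.57, 0.66, 0.28 and 0.62. In ND, 1 cell held 84.1% of the hemoglobin of B-like cells and 1 cell 99.1% of that of basophil or mast-like cells. No resident macrophage-like, dendritic-like, NK-like or pericyte or smooth muscle-like cell reached 20 UMIs. For the 377 resident macrophage-like cells this allows a share of up to 0.796%.

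Resident macrophages take up dying red cells and free hemoglobin, so the genes of this path were looked at in the resident macrophage-like class. Hemoglobin there was 1.08 UMIs per cell in ND and 1.29 in HFD, within the range of the other classes. The hemoglobin receptor Cd163 was at 158 UPM in ND and 123 in HFD, a log2 ratio of -0.36 (-0.60 to -0.12), and the heme oxygenase Hmox1 at 469 and 415, a log2 ratio of -0.18 (-0.31 to -0.04). In the 52 ND cells with a Cd163 UMI hemoglobin was 1.38 UMIs per cell, and in the 46 HFD cells 1.76 (72 and 81 UMIs in all). In cells with an Hmox1 UMI it was 1.15 and 1.37, near the means of the class. Depth was not matched between cells with and without a UMI of these genes, and uptake of hemoglobin RNA was not tested. The iron exporter Slc40a1 had 2 UMIs in ND and 42 in HFD, the adhesion receptor Vcam1 4 and 86 and the macrophage factor Spic 5 and 26. Of these HFD UMIs 35, 82 and 21 lay in a single cell for each gene. Marco and Hpx had none.

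Other globin genes were scarce. The embryonic genes Hbb-bh1, Hbb-bh2 and Hba-x had no UMI in any kept cell of either library, and the embryonic Hbb-y had 2, both in erythroid-like cells. The theta genes Hbq1a and Hbq1b had 7 and 53 UMIs, of which 7 and 49 lay in erythroid-like cells. Myoglobin (Mb) had 13 UMIs and neuroglobin (Ngb) 7, and none of either was in an erythroid-like cell. Cytoglobin (Cygb), which is expressed in fibroblasts, had 1353 UMIs in ND and 2674 in HFD, with 3785 of the sum in mesenchymal-like cells and 2 in erythroid-like cells.

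The genes whose level followed summed hemoglobin most closely over the 26 levels of 13 classes in 2 libraries included Alas2 (Pearson r = 0.95), Slc4a1 (0.93) and Tmem86b (0.93), among 11877 genes with at least 200 UMIs, on log2 levels after adding 10 UPM. These levels share libraries and the erythroid-like class sets the correlation. Over the 24 levels without it, the order was Alas2 (0.87), Gm43445 (0.83), Prss34 (0.79), Rnase12 (0.78) and Fcer1a (0.78). Prss34 and Fcer1a are basophil and mast cell genes, and the highest of these 24 levels was that of ND basophil or mast-like cells, 8922 UPM with 99.1% of it in 1 cell.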

How the data were processed

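Per the submitters' processing notes, the authors aligned reads to mm10 and counted them with Cell Ranger 6.0.1, and the deposited values are raw UMI counts per gene and cell barcode, with no normalization. The file of each diet pools its mice. Such counts from 1 library per diet allow no test, and no count model was fitted. Kept cells of both libraries were merged and clustered without the Hba, Hbb and Hbq globin genes, but with Mb, Cygb and Ngb. The clustering ran in R 4.3.3 with Seurat 5.3.0 (its objects from SeuratObject 5.2.0). Counts were scaled by sctransform 0.4.2, removing cell cycle scores, and clusters came from 30 principal components at Louvain resolution 0.5. A cluster was named from at least 3 markers, each with 20 UMIs and 2-fold the median level over clusters after adding 10 UPM. These limits were set after clusters had been seen. Among the 10 top genes of a cluster, markers of its class also had to outnumber those of any other class that had some there. Shallow clusters with no marker of their class among these genes were not named. A cluster of 377 cells had 10 B cell markers past the limits but stayed unnamed. The classes are rebuilt and need not be those of the study.

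Levels are UPM (UMIs of a gene per 1000000 UMIs) with exact Poisson intervals, shares have exact Clopper-Pearson intervals, and log2 ratios (0.5 added to each count) have exact conditional binomial intervals, all at 95%. A count of 0 was taken to allow 3 counts. Scrublet (scanpy 1.11.5) with its own threshold called 9 ND and 23 HFD cells, too few to have worked, so cells with a score over 0.25 were called (194, or 1.58% of kept cells) and kept except in an alternative. Genes were named by rule: the 4 members, listed genes by count with those of highest UMI number, the 5 genes most like hemoglobin, and the 5 at each end between high-share and low-share cells. Further list genes, Gata1, Klf1 and the other abundant RNAs were named after their values had been seen. The members and lists were chosen with earlier results of these data known. Tables were handled with pandas 2.3.3 and anndata 0.12.19 under Python 3.11.15, intervals computed with scipy 1.17.1 on numpy 2.4.6, and plots drawn with matplotlib 3.10.9. Hbb-bh0 and Ahsp were not analysed here. Some genes that the rule names are not reported here. The computation was tested on simulated data. Gene positions are those of the GENCODE annotation of GRCm38, and promoter windows those of RefSeq for GRCm38.p6.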

Additional observations from a re-analysis of the deposited data

Results flagged for a closer look

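Strong signal lay outside the cells compared: 37 ND and 36 HFD barcodes that did not pass the filter on detected genes had 1000 or more hemoglobin UMIs each. They held 187252 and 174980 hemoglobin UMIs, more than the 127861 and 114451 of the erythroid-like class. All had 500 or fewer detected genes, and none had a high mitochondrial share. What these barcodes held was not tested.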

How the results depend on the processing

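Of 98 alternative values for 10 results, 46 moved by less than their counting interval, 51 moved further and 1 turned direction. These intervals cover counting error only. More than 200 detected genes gave erythroid-like levels of 160306 UPM in ND and 156322 in HFD, the reversed log2 ratio of -0.036, shares of 2.35% and 1.93%, an HFD alpha share of 42.6%, and outside levels of 424 and 576 with a log2 ratio of 0.44. No limit on mitochondrial UMIs gave 239045 and 254066 in erythroid-like cells, and 538, 560 and a ratio of 0.059 outside. Keeping hemoglobin genes in the clustering gave 221331, 254066 and a ratio of 0.20 inside, and 530, 560 and 0.078 outside. Taking every cell with 3 or more erythroid markers as erythroid gave 95818, 107395 and 0.16 inside, 114, 185 and 0.70 outside, and shares of 1.41% and 0.868%. Thinning to 1000 UMIs gave 446758, 489731 and 0.13 inside, an ND alpha share of 41.3%, and 389 for ND with a ratio of 0.40 outside. A denominator without hemoglobin gave 292249, 314503 and 0.11 inside. Removing doublets gave 529 for HFD and a ratio of 0.30 outside. As reported, the values outside were 435, 520 and 0.26. Alternatives chosen after seeing the data were leaving out cells of 20 or more hemoglobin UMIs outside (115, 173 and 0.59), adding cells of 100 or more with 3 markers to the erythroid-like class (212067, 226895 and 0.10 inside, an ND alpha share of 40.6%, and 134, 186 and 0.47 outside) and leaving out the cell of highest hemoglobin per library (208636, 226964 and 0.12). By construction, some alternatives added or removed cells, thinning gave every cell the same number of UMIs, and the other denominator left hemoglobin UMIs out. Unthinned, the mean hemoglobin share per erythroid-like cell was 44.4% in ND and 49.1% in HFD. The cause of these shifts was not tested further.

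At resolution 0.25 no cluster was named erythroid-like, which gave no value, and at resolution 1 the 59 cells were the same. No paired analysis was possible because barcodes carry no mouse, although the labels number the mice 1 to 4 in both diets. Leaving out a replicate was not possible with 1 library per diet. Depth limits the transcription factors in high-share cells and single classes of under 60 cells.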
